A study of Mus musculus with 6 samples.

Results

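The transcription factors that assign CD4 T cells to helper and effector lineages were followed in regulatory T cells (Treg) whose p300, the histone acetyltransferase encoded by Ep300, had been deleted. The members were the genes Tbx21, Eomes, Gata3, Rora, Ahr, Bcl6, Maf, Irf4 and Prdm1, chosen by symbol. They were read through every probe set that the platform annotation assigns to that symbol alone. This gave 15 of 20393 probe sets with a single symbol, and 9 of 12394 genes.

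The study hybridised 1 biotin-labelled array per sample from magnetically separated CD4+CD25+ cells of C57Bl/6 mice. The 3 p300-deleted samples carried the genotype fl-p300/Foxp3cre, and the 3 control samples carried Foxp3cre, although the control titles read WT. Both groups by these genotypes share the Cre that is driven from Foxp3, the gene of the Treg lineage factor, so deletion is directed to cells that express Foxp3. The sources used here do not give the age and sex of the mice or say whether animals were pooled. The design text calls the samples independent without naming animals, so the p-values cover only sample-to-sample spread, part of which may be technical.

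Each helper lineage has a factor at its centre. Tbx21 encodes T-bet, the factor of interferon-producing Th1 cells, and Eomes its T-box relative in cytotoxic cells. Gata3 directs Th2 cells, Rora acts in Th17 cells, Bcl6 and Maf act in follicular helper cells, and Ahr is a ligand-activated receptor. Irf4 and Prdm1, which encodes Blimp-1, act in effector differentiation of T cells and in plasma cells. In Treg several of these factors are expressed at the side of Foxp3, where they are known to adapt the cells to the type of response around them. p300 acetylates histones and acts as a coactivator of many transcription factors.

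None of the 9 factors differed between the groups past the threshold, an adjusted p under 0.05 in limma with Benjamini-Hochberg adjustment over 8676 genes. The count was 0 higher and 0 lower among the members, against a background of 0.991% of all tested genes higher and 0.726% lower. Before adjustment, p was under 0.05 for 2 members, Tbx21 and Rora (22.2% of the members), near the 18.1% of all tested genes. In mean level 5 members were lower and 4 higher in p300-deleted cells, with a median difference of -0.09 on the log2 scale against -0.03 over all genes tested. The difference exceeded 0.5 in size for 2 members, again Tbx21 and Rora, and for 6.89% of all genes tested. On 3 arrays against 3 an exact permutation test of a single gene cannot give a two-sided p under 0.1. A missed threshold does not show that levels were equal, so the 95% interval of each difference is given.

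**Figure D1:**
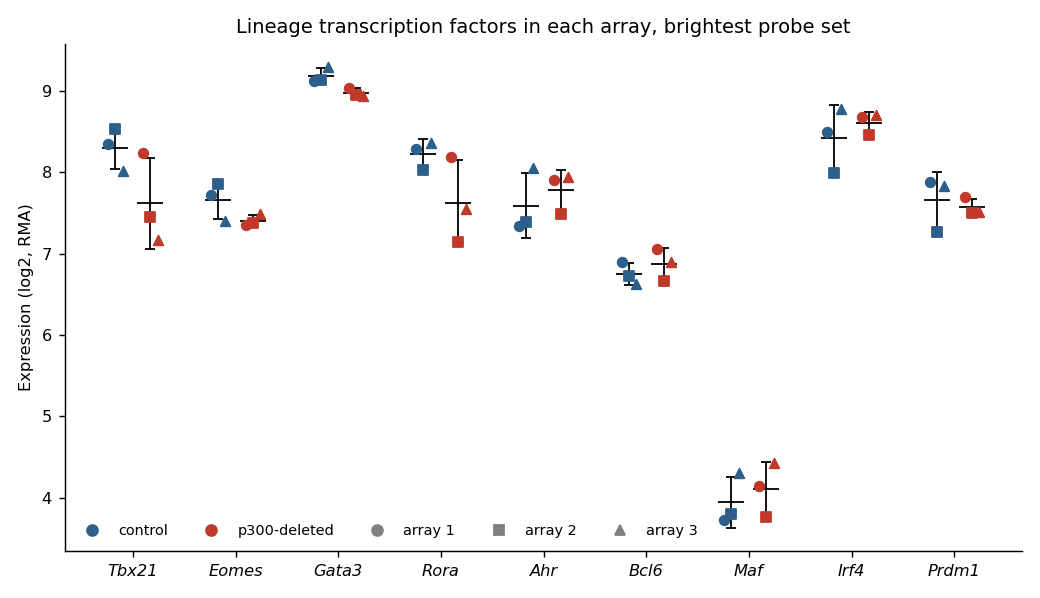
Log2 expression (RMA) of each factor by its brightest probe set in the 3 control and 3 p300-deleted arrays, with mean and SD as bars and the array number as the symbol's shape. The groups overlap for 8 of the 9 factors, and the p300-deleted arrays of Tbx21 spread from 7.16 to 8.24.

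The labelled cell type was checked first. Of 10 listed T cell markers 8 were tested, and 7 of them, among them Cd3e and Cd4, had higher means in p300-deleted cells without passing. Foxp3 itself read 2.57, 3.04 and 3.15 in the p300-deleted arrays, against 9.63, 9.35 and 9.39 in the controls, and fell by 6.53 (SE 0.16, limma adjusted p = 4.36e-07). The p300-deleted values lie under the lower quartile of their own arrays, 3.26 to 3.29, so the defining marker of Treg was near background there and background limits the size of the fitted difference. The sources used here do not give the structure of the Foxp3cre allele or the part of the transcript that the probe set reads, so what the low reading means for Foxp3 RNA was not tested. For Ep300 the annotation holds 0 probe sets with that as their only symbol, so the deletion itself was not read. In bulk samples of many cells, a smaller number of cells of a type and less RNA in each cell cannot be told apart.

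The T-box pair is shown with the sequence before each transcript start, because both of its members were lower in mean and they share a DNA-binding domain. RefSeq windows were found for 7 of the 9 factors, and Maf and Ahr had none in the table. The 250 bases before the RefSeq start are printed 5′ to 3′ on the strand of the gene (build GRCm38.p6). They are chr11:97115332-97115581 on the minus strand for Tbx21 and chr9:118477939-118478188 on the plus strand for Eomes. Capitals mark matches to the motifs named after the sequences.
Tbx21: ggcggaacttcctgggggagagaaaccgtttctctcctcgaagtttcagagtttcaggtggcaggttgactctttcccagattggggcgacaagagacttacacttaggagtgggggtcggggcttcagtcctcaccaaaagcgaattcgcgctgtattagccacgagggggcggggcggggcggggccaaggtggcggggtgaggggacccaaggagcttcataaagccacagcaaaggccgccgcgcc
Eomes: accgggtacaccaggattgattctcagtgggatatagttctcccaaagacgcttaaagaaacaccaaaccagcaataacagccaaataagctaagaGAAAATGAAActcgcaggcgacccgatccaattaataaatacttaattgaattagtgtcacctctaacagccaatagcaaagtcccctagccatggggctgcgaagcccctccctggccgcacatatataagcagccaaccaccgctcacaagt
The motifs were searched on both strands of the 8 windows of the 7 factors. The T-box motif AGGTGT was in 0 of 8 windows (11.8% of 32851 RefSeq windows of this length), the GATA core AGATAA in 0 (9.99%) and the RORA motif AGGTCA in 0 (14%). The Blimp-1 motif GAAAGTG was likewise in 0 of 8 (4.01%). The Eomes window held an interferon-response motif (GAAA, 2 bases of any kind, then GAAA), starting at base -154 from the transcript start, which 2.98% of all windows hold. The xenobiotic-response core GCGTG was in 3 windows, those of Rora, Prdm1 and Irf4 (28.2% of all windows). The AP-1 motif TGANTCA was in the window of Prdm1 (6.75%), and TTCNNNGAA, a shape shared by BCL6 and STAT sites, was in both windows of Bcl6 (7.02%). The Tbx21 window had 60.8% GC and 16 CpG, and the Eomes window 46.4% and 8, against medians of 52.4% and 6 over all windows. Among the 9089 windows of tested genes the share was 44.6% for GCGTG and 5.95% for AGATAA. These are matches of letters in short windows only.

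Tbx21 had the largest difference of the 9. Its 1 probe set (1449361_at) read 8.24, 7.45 and 7.16 in the p300-deleted arrays, against 8.35, 8.52 and 8.01 in the controls. The first p300-deleted array lay among the controls, and the other two lay below every control array. The control mean was 8.29 ± 0.26 (SD, n = 3) and the p300-deleted mean 7.62 ± 0.56 (SD, n = 3). The difference between them was -0.68 (SE 0.26, 95% interval -1.27 to -0.09, limma adjusted p = 0.219), which corresponds to 0.625 of the control level with an interval of 0.415 to 0.941. Without the first p300-deleted array it was -0.99 (adjusted p = 0.0623), and without the third -0.45 (adjusted p = 0.448). It was -0.43 both with the 18S covariate (the 18S ribosomal RNA signal of each array) and with the Gapdh covariate (the 3′ to 5′ difference of the Gapdh control probes, described with Irf4). The 18S signal read 7.74, 9.47 and 7.91 in the p300-deleted arrays, against 5.68, 6.03 and 8.69 in the controls. The Gapdh difference did not overlap between the groups. Both covariates thus go partly with the group, and a fit with either cannot fully tell covariate and group apart.

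Eomes was read by 2 probe sets with like values. The brighter one read 7.35, 7.38 and 7.48 in p300-deleted cells, against 7.72, 7.86 and 7.39 in controls. The p300-deleted arrays were close together, and the third control array lay among them. The difference was -0.26 (SE 0.13, 95% interval -0.56 to 0.05, limma adjusted p = 0.365), and the second probe set gave -0.22. Without the third control array the difference of the brighter probe set was -0.39 (adjusted p = 0.0940). It was -0.16 without the second, -0.09 with the 18S covariate and -0.07 with the Gapdh covariate. Tbx21 and Eomes thus had the same sign, and in both the third control array was the lowest of the controls.

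Markers of other cells that use these T-box factors were read beside them. Of 13 NK and innate cytotoxic markers 8 were tested and 2 rose, Klrb1b, a lectin-like receptor, by 2.30 (SE 0.41, limma adjusted p = 0.0405) and the protease gene Gzma by 0.73 (SE 0.14, adjusted p = 0.0445). Their mean log2 level was 6.78 to 7.30 in the p300-deleted arrays, against 5.94 to 6.36 in the controls, so the groups did not overlap, and the NK receptor gene Ncr1, named after its values were seen, was at 1.46 (adjusted p = 0.0982). Of the 8 tested, 7 had positive values and 1 a negative one, while the mean differences of Tbx21 and Eomes were negative. Klrb1b lost its call when any of the p300-deleted arrays or the first control array was left out and with either covariate. Its differences were 1.80 to 2.63 with an array left out. It also lost the call in the fit on all probe sets (limma adjusted p = 0.060) and with trended and robust variance (adjusted p = 0.071). The gene has 4 probe sets, and these values are of the brightest. By the mean of its probe sets it fell under the dim limit and was not tested. Of 5 CD8 T cell markers 0 passed in limma, with Gzmk at 0.60 (adjusted p = 0.0681) and Cd8b1 at 0.35 (adjusted p = 0.161). An unadjusted p was under 0.05 for 2 of the 5, against 18.1% of all tested genes. Mean levels of the CD8 markers were 5.38 to 5.51 in the p300-deleted arrays against 5.15 to 5.29 in the controls. The part of such cells in the T-box values was not tested.

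Genes of the Th1 program had lower means for 10 of 13 tested, with a median difference of -0.21, but 0 of 13 passed in limma. An unadjusted p was under 0.05 for 4 of the 13, against 18.1% of all tested genes. Ccl5, a chemokine that T-bet is known to promote, read 10.93, 10.52 and 10.48 in p300-deleted cells, against 11.04, 11.11 and 11.49 in controls. Its arrays did not overlap, as for 23.7% of all tested genes, at a difference of -0.57 (SE 0.17, limma adjusted p = 0.128). Il18rap, a chain of the interleukin-18 receptor, was at -0.60 (adjusted p = 0.237) with overlapping arrays. Ifng, named after its values were seen, read 8.43, 7.91 and 7.15 against 8.29, 8.19 and 7.63, a difference of -0.21 (SE 0.30, adjusted p = 0.779). Its p300-deleted arrays had the same order as those of Tbx21, with the first highest and the third lowest. The mean level of the Th1 list was 7.50, 7.14 and 6.93 in the p300-deleted arrays, against 7.46, 7.35 and 7.34 in the controls, again with the first p300-deleted array above the controls. The median of the list was -0.002 with the 18S ribosomal RNA signal of each array as a covariate. That signal was unequal between the groups, as given with Tbx21, so covariate and group cannot be fully told apart.

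Of 12 genes of the cytotoxic program tied to Eomes 1 rose, Gzma as given above, and 11 did not pass. Gzma read 9.40, 9.56 and 9.51 in p300-deleted cells, against 8.49, 8.91 and 8.89 in controls. The list as a whole had a median of -0.30, with negative values for 9 of the 12, so Gzma was an exception to the sign of most members. With the 18S covariate that median was -0.003, under the same limit.

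Gata3 was the brightest and steadiest of the factors across arrays. Its 1 probe set (1448886_at) read 9.03, 8.95 and 8.93 in the p300-deleted arrays, against 9.11, 9.13 and 9.29 in the controls. The groups did not overlap, the only such case among the 9 members (11.1%), while the arrays did not overlap for 23.7% of all tested genes. The difference was small, -0.20 (SE 0.10, 95% interval -0.44 to 0.03, limma adjusted p = 0.342), or 0.868 of the control level. It kept its sign under all 17 alternative fits, from -0.26 to -0.15. Several of these fits leave the difference unchanged by their design. Arrays without overlap also keep the sign with any 1 array left out, so the kept sign is little further support. The tested genes whose values over the 6 arrays, each centred on its own mean, were nearest to Gata3 were Syngr1, a synaptic vesicle protein gene, and Elavl1, the gene of the RNA-binding protein HuR. Their root mean square distances were 0.034 and 0.035, against a median of 0.198 over 8667 genes. These 2 were picked as the nearest, so a distance under the median was fixed by the choice. Syngr1 read 3.97 to 4.35, near the dim limit of 3.91.

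Genes of the Th2 program gave 0 calls among 10 tested in limma, with a median of 0.06 and positive values for 6. An unadjusted p was under 0.05 for 4 of the 10, against 18.1% of all tested genes. Dusp14, a phosphatase, was at 0.47 (SE 0.11, limma adjusted p = 0.0845), and Zfpm1, which encodes the GATA cofactor FOG1, at -0.44 (SE 0.18, adjusted p = 0.242). Il5, Il9 and Ptgdr2 lay under the dim limit, a mean of 3.91. Il4 was at -0.39 (adjusted p = 0.626) with overlapping arrays. Il13 had the opposite sign, at 0.32 (adjusted p = 0.156), and its arrays did not overlap, as for 23.7% of all tested genes. Zbtb32, also called repressor of GATA, was the only gene that passed among 26 tested partners and opposing factors. It read 5.50, 5.35 and 5.35 in p300-deleted cells, against 6.47, 6.06 and 6.46 in controls, and fell by 0.93 (SE 0.13, limma adjusted p = 0.0223). The list of partners had a median of -0.07, with 11 positive and 15 negative values.

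Mast cells, basophils and group 2 innate cells also express Gata3 or Rora. Of 14 such markers 12 were tested and 6 rose, with a median of 0.66 and mean levels of 5.53 to 6.01 in p300-deleted arrays against 4.78 to 4.94 in controls. Mcpt8, a basophil protease gene, rose by 2.53 (SE 0.43, limma adjusted p = 0.0374) and Fcer1a, a chain of the IgE receptor, by 1.67 (SE 0.25, adjusted p = 0.0244). Without the second p300-deleted array or the first control array both calls were lost. That of Mcpt8 was also lost without the second control array, and that of Fcer1a without the third p300-deleted array. Mcpt8 further lost its call with the 18S or the Gapdh covariate, in the fit on all probe sets and with trended and robust variance. Fcer1a kept its call in those fits. The mean of Gata3 was lower in the same arrays. The part of these cells in the values of Gata3 and Rora was not tested.

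Rora was read by 3 probe sets that did not give the same difference. The brightest (1424034_at) read 8.18, 7.14 and 7.55 in p300-deleted cells, against 8.29, 8.02 and 8.36 in controls. As for Tbx21, the first p300-deleted array lay among the controls and the other two below all of them. The difference was -0.60 (SE 0.24, 95% interval -1.14 to -0.06, limma adjusted p = 0.236), or 0.660 of the control level. It was -0.88 (adjusted p = 0.0710) without the first p300-deleted array and -0.36 (adjusted p = 0.611) without the second.

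The second probe set of Rora (1420583_a_at) read 6.46, 5.29 and 5.82 against 6.35, 4.76 and 6.78, at a difference of -0.10 with an interval of -1.20 to 0.996. Its control arrays ranged over 2.02, with the second control far below the others, and this probe set bounds the difference only loosely. The last of the 3 (1424035_at), at a mean of 3.46 under the dim limit, gave 0.20 (interval -0.10 to 0.50). With the mean of the 3 probe sets the difference of Rora was -0.17 (adjusted p = 0.785), so its size depended on which probe set was read. The sources used here do not say which transcripts each probe set binds.

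**Figure D2:**
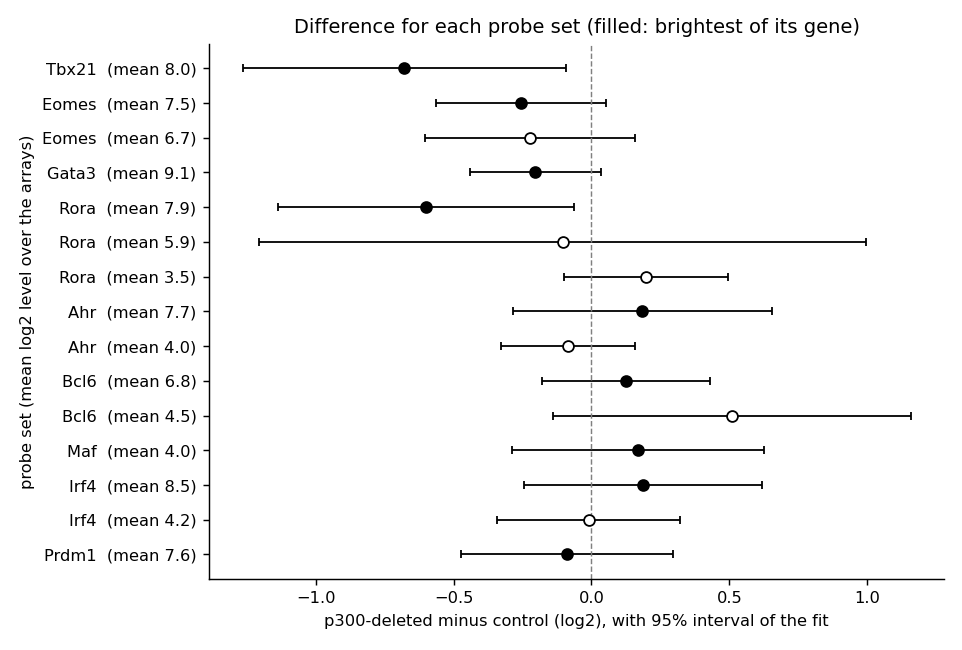
Difference (p300-deleted minus control, log2) of each of the 15 probe sets with its 95% interval from the fit on all probe sets, filled where it is the brightest of its gene. The intervals of Tbx21 and the brightest Rora probe set stay below 0 before adjustment, and the 3 Rora probe sets run from -0.60 to 0.20.

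Of the 14 genes of the Th17 list 10 were tested. Of these 1 rose, Il21r, the receptor of interleukin-21. It read 7.92, 7.93 and 7.81 in p300-deleted cells, against 7.28, 7.09 and 7.36 in controls, a rise of 0.65 (SE 0.11, limma adjusted p = 0.0392). The median of the list was -0.08, and its array means overlapped, from 7.43 to 7.90 against 7.72 to 7.88.

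Ahr was read by a bright and a much dimmer probe set. The bright one (1422631_at) read 7.90, 7.48 and 7.93 in p300-deleted cells, against 7.34, 7.38 and 8.05 in controls. The third control array was the highest of all 6 and the other controls the lowest. The difference was 0.18 (SE 0.21, 95% interval -0.29 to 0.66, limma adjusted p = 0.692), and the dimmer one, at a mean of 3.98, gave -0.09. Of 13 listed pathway genes only 3 were tested and 0 passed in limma (0 before adjustment, at p under 0.05). Arnt, the partner of the receptor, was at 0.15 (adjusted p = 0.510) and its target Tiparp at 0.05 (adjusted p = 0.848). The targets Cyp1a1, Cyp1b1, Ahrr, Nqo1 and Ido1 lay under the dim limit and were not tested.

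Bcl6 was read by 2 probe sets that were both higher in mean. The brighter one (1421818_at) read 7.06, 6.66 and 6.90 in p300-deleted cells, against 6.89, 6.73 and 6.62 in controls. The groups overlapped, at a difference of 0.13 (SE 0.13, 95% interval -0.18 to 0.43, limma adjusted p = 0.669). The second (1450381_a_at) gave 0.51 with an interval of -0.14 to 1.16, and here the second control array, at 3.45, was far below the others, which read 4.36 and 4.78.

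Maf was the dimmest member, with a mean of 4.03 just above the dim limit of 3.91. Its 1 probe set (1447945_at) read 4.15, 3.77 and 4.43 in p300-deleted cells, against 3.73, 3.81 and 4.30 in controls. The difference was 0.17 (SE 0.20, 95% interval -0.29 to 0.63, limma adjusted p = 0.712).

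Genes of the follicular helper program, which Bcl6 and Maf serve, included 2 that rose among 13 tested. Il21, the cytokine of follicular helper cells, read 5.63, 5.99 and 5.91 in p300-deleted cells, against 4.58, 5.20 and 4.62 in controls. It rose by 1.04 (SE 0.18, limma adjusted p = 0.0393), as did its receptor gene Il21r on the Th17 list. Il10, a cytokine that Maf is known to promote, read 7.45, 7.41 and 7.33 against 6.41, 6.27 and 6.78, and rose by 0.91 (SE 0.14, adjusted p = 0.0283).

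The follicular list had a median of 0.42, with 8 positive and 5 negative values, and its array means did not overlap, 7.66 to 7.72 against 7.39 to 7.53. Before adjustment, p was under 0.05 for 9 of the 13 (18.1% of all tested genes), and the arrays of 7 did not overlap (23.7% of all tested genes). Among the genes without a call, named after their values were seen, the transcription factor genes Lef1 and Tox were at 0.78 (adjusted p = 0.156) and 0.67 (adjusted p = 0.305). The costimulatory receptor gene Icos was at -0.69 (adjusted p = 0.205), and the homing receptor gene Cxcr5 at -0.11 (adjusted p = 0.793). Markers of B cells, some of which express Bcl6, gave 1 call among 9 tested, Spib, which fell by 0.95 (SE 0.16, limma adjusted p = 0.0368). Spib lost its call without the second or the third p300-deleted array and without the first or the second control array. The call was also lost with the 18S or the Gapdh covariate and in the fit on all probe sets. Array means of the B cell markers overlapped, 6.02 to 6.69 against 6.48 to 6.66, and Pax5, Ebf1 and Cr2 lay under the dim limit.

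The 4 genes that rose on the lineage lists, Il21, Il10, Gzma and Il21r, had no overlap between arrays. They were chosen by their calls on the same arrays, so this is no further support. These 4 and Zbtb32 each lost the call when any of the p300-deleted arrays or the first control array was left out, and with the 18S covariate. Gzma and Il21r also lost it without the second control array, and Gzma, Il10 and Il21r with the Gapdh covariate. Il21, Gzma and Il21r lost it in the fit on all probe sets as well. The differences themselves ran, with an array left out, from 0.94 to 1.25 for Il21, from 0.80 to 1.06 for Il10, from 0.59 to 0.80 for Gzma, from 0.57 to 0.70 for Il21r and from -1.07 to -0.86 for Zbtb32.

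**Figure D3:**
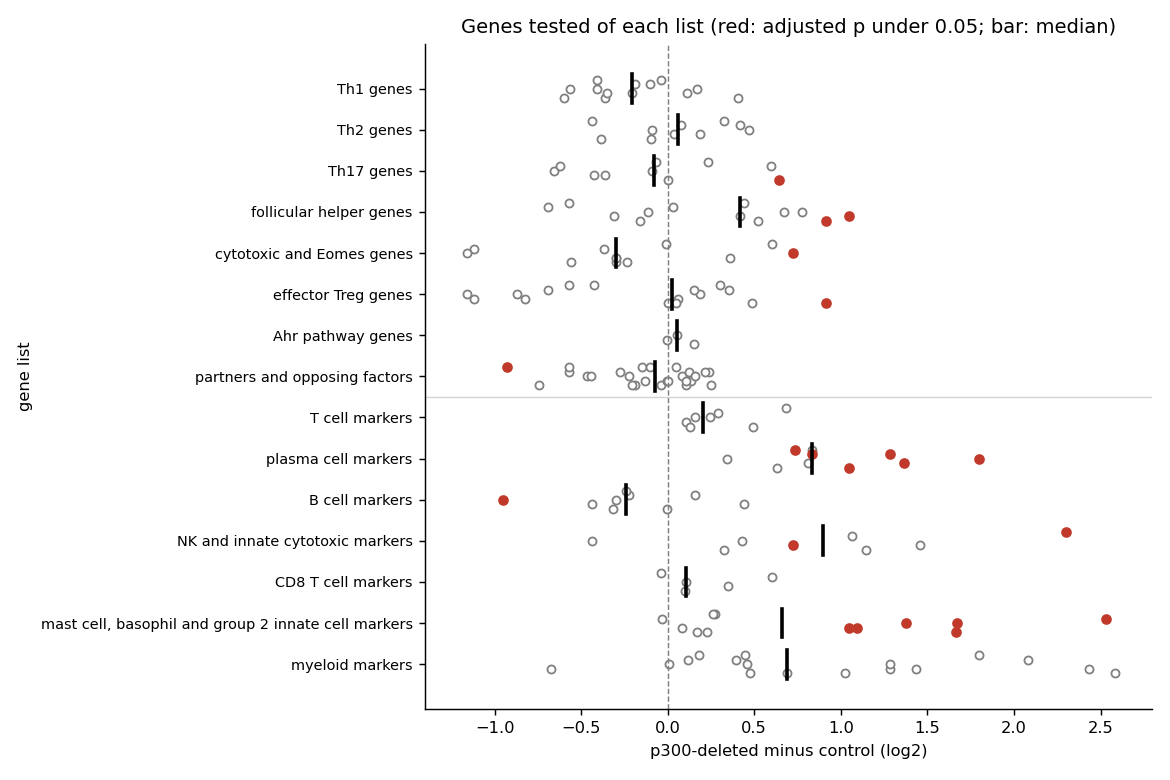
Difference (p300-deleted minus control, log2) of every tested gene of the 8 lineage lists (above the grey line) and of the 7 lists of cell type markers (under it), red where the adjusted p was under 0.05, with the median of each list as a bar. Foxp3, at -6.53 on the T cell list, lies outside the axis. Plasma cell and mast cell markers each have 6 red points, all to the right of 0.

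Irf4 was among the brighter factors. Its brighter probe set (1421173_at) read 8.67, 8.45 and 8.70 in p300-deleted cells, against 8.50, 7.99 and 8.78 in controls. The p300-deleted arrays lay within the range of the controls, which spread over 0.79. The difference was 0.19 (SE 0.19, 95% interval -0.25 to 0.62, limma adjusted p = 0.659), and the dimmer second probe set gave -0.01. Without the second control array it was -0.03.

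Prdm1 was likewise spread mainly by the controls. Its 1 probe set (1420425_at) read 7.69, 7.50 and 7.51 in p300-deleted cells, against 7.88, 7.26 and 7.83 in controls. All p300-deleted arrays lay inside the control range of 0.62. The difference was -0.09 (SE 0.17, 95% interval -0.47 to 0.30, limma adjusted p = 0.831).

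Each of the 3 control arrays was the lowest control for 3 of the 9 factors. The second control array was the lowest for Irf4, Prdm1 and Rora, and for the other probe sets of Bcl6 and Rora. It was the highest control for Tbx21, Eomes and the dimmer probe set of Irf4. In that array the Gapdh control signal at the 3′ end was above that at the 5′ end, a measure of RNA degradation, by 0.59 (log2), against 0.21 and 0.23 in the other controls and 0.06 to 0.14 in the p300-deleted arrays. With this value as a covariate the differences of Irf4 and Prdm1 were -0.26 (adjusted p = 0.405) and -0.47 (adjusted p = 0.167).

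Plasma cells carry Irf4 and Prdm1 at high levels, and some of their markers rose in these samples. Of 12 listed markers 10 were tested and 6 rose, among them Tnfrsf17, the receptor BCMA, by 1.80 (SE 0.18, limma adjusted p = 0.00587) and Derl3, an endoplasmic reticulum protein gene, by 1.37 (SE 0.21, adjusted p = 0.0322). Both lost the call without the first control array, and Derl3 also without the third p300-deleted array. Derl3 lost it with the 18S and with the Gapdh covariate too, while Tnfrsf17 kept it with either. The arrays did not overlap for any of the 10, while 23.7% of all tested genes had no overlap. Mean levels were 8.11 to 8.59 in p300-deleted cells against 7.23 to 7.52 in controls. Prdm1 and Irf4 themselves had no call in the same arrays, at -0.09 and 0.19. The part of plasma cells in the values of both factors was not tested.

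Of 16 tested genes of effector Treg, a state that Irf4 and Prdm1 are known to promote, 1 rose, the Il10 given above, and 15 did not pass. The list had 9 positive and 7 negative values and a median of 0.03. Before adjustment, p was under 0.05 for 8 of the 16 (18.1% of all tested genes), with values of both signs. Klrg1 and Gzmb, named after their values were seen, had the largest differences of the list, -1.16 and -1.12 (adjusted p = 0.0912 and 0.212), opposite in sign to Il10.

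Myeloid cells can express Maf, Ahr and Prdm1. Of 20 myeloid markers 17 were tested and 0 passed in limma (9 before adjustment, at p under 0.05), with 16 positive values, a median of 0.69 (0.40 without the first p300-deleted array) and the neutrophil genes S100a8 and S100a9 at 2.59 (adjusted p = 0.101) and 2.43 (adjusted p = 0.120). Their mean level was 7.05 in the first p300-deleted array, 5.67 and 5.87 in the others and 4.92 to 5.57 in the controls. The first p300-deleted array was also the highest of its group for 5 of the 9 factors, Tbx21, Gata3, Rora, Bcl6 and Prdm1. The second was the lowest of its group for 6. Whether the myeloid signal and the factors of the first array share a source was not tested.

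**Figure D4:**
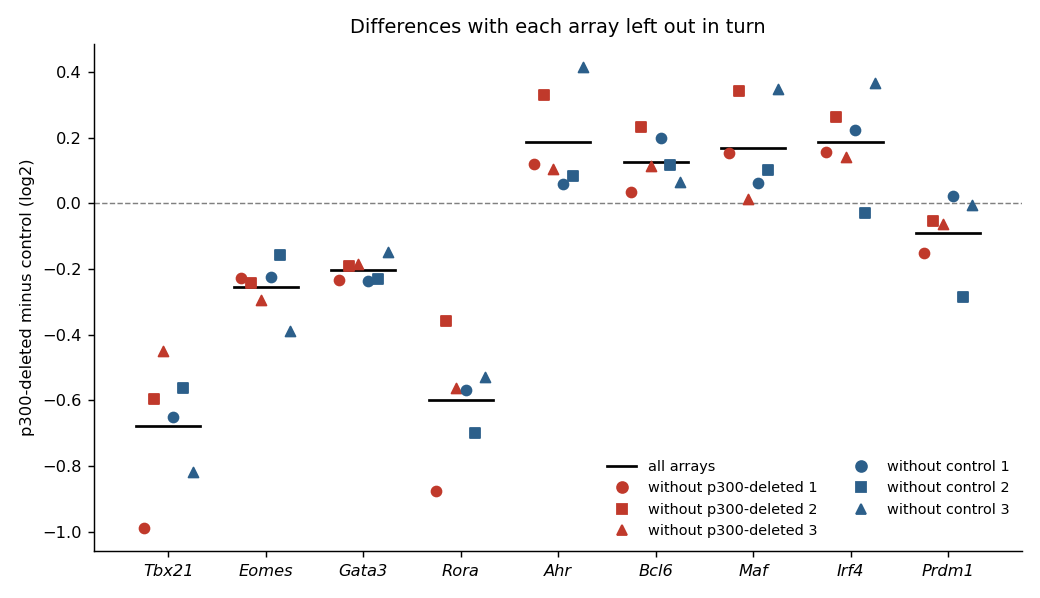
Difference (p300-deleted minus control, log2) of each factor with all arrays (black line) and with each array left out in turn (points; red for p300-deleted, blue for control, shape for the array number). Tbx21 runs from -0.99 to -0.45 and Rora from -0.88 to -0.36, while the points of Irf4 and Prdm1 fall on both sides of 0.

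In the fit on all 20393 probe sets, 0 of the 15 probe sets of the factors passed in limma, against 0.382% of all probe sets. An unadjusted p was under 0.05 for 2 of the 15. In the fit by gene, 18.1% of all tested genes had such a p. Of the 15, 9 were lower and 6 higher in mean in p300-deleted cells. For Rora, Irf4 and Ahr the probe sets of a gene differed in sign, and for Eomes and Bcl6 they did not.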

How the data were processed

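RNA of 6 samples, 3 p300-deleted and 3 control Treg, was read on expression arrays from 100 ng of total RNA. The deposited log2 values, 1 per probe set, come from RMA by the submitters' processing notes, which give no version. RMA subtracts background and brings arrays to nearly the same distribution, which hides a shift common to most genes and compresses dim signals. Array medians were 5.38 to 5.46.

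Groups and replicate numbers came from the sample titles. Symbols came from the platform annotation (1 symbol for 20393 of 22690 probe sets, several for 691, none for 1606), with 20364 matched by gene ID to RefSeq (GRCm38.p6) and 0 renamed. The probe set with the highest mean stood for each gene, and the dimmest 30% of genes (mean under 3.91) were left out, which left 8676 and all 9 members. Differences are p300-deleted minus control from limma 3.58.1 (lmFit, eBayes; R 4.3.3), with SE and two-sided p adjusted by Benjamini-Hochberg. Tested on simulated data for this comparison (8676 genes), the fit recovered 19.8% of changes of 0.5, 88.5% of 1 and 99.3% of 2 on the log2 scale. The number of arrays limits the precision.

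Members, gene lists, alternatives and the naming rule were chosen with earlier results of these data known. The rule named all members and Foxp3, up to 3 genes past the threshold from each lineage list (or the 2 with the largest differences where none passed), at most 2 from each marker list, and for members without overlap the 2 nearest genes. Other genes were named after their values were seen.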

Additional observations from a re-analysis of the deposited data

How the results depend on the processing

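None of the 9 factors passed the threshold in any of 152 alternative fits with limma; the lowest adjusted p was 0.0623, for Tbx21 without the first p300-deleted array. Tbx21, Eomes, Gata3 and Rora kept a negative sign in all of these fits. Several of the settings change only the variance or the set of genes and so leave a difference as it was. The sign turned for Bcl6 with array weights (-0.00073), for Maf, Irf4 and Ahr with the Gapdh 3′ to 5′ covariate (-0.054, -0.26 and -0.086), and for Tiparp without the second p300-deleted array (-0.016). With an array left out Irf4 ran from -0.029 (without the second control array) to 0.37 (without the third), and Prdm1 from -0.29 (without the second) to 0.023 (without the first). At an unadjusted p under 0.05, 2 factors were lower.

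Over all genes the main count of 149 became 95 with the mean of a gene's probe sets, 78 in the fit on all probe sets, 1019 with array weights, 98 with the replicate block, 15 with the 18S covariate, 48 with the Gapdh covariate, 9 to 230 with an array left out (9 without the first control array), 399 at an adjusted p under 0.10 and 1571 at an unadjusted p under 0.05. Lineage list genes that rose (4) became 1 in the fit on all probe sets, 10 with array weights, 0 with the 18S and 1 with the Gapdh covariate, 0 to 5 with an array left out, 7 at an adjusted p under 0.10 and 13 unadjusted. Those that fell (1) became 0 with the dimmest 50% of genes left out, 13 with array weights, 0 with the 18S covariate, 0 to 1 with an array left out, 3 at an adjusted p under 0.10 and 20 unadjusted. Markers of other cells that rose (13) became 6 with the dimmest 50% left out, 5 in the fit on all probe sets, 21 with array weights, 4 with the 18S and 3 with the Gapdh covariate, 0 to 10 with an array left out (0 without the first control array) and 30 unadjusted. Those that fell (1) became 0 in the fit on all probe sets and with either covariate, 0 to 1 with an array left out and 2 unadjusted. The causes were not tested.

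The deviations of same-numbered arrays from their group means had correlations of -0.07, 0.12 and -0.12, against -0.19 to 0.23 for arrays of different number. Correlations over all genes cannot exclude a pairing that acts on part of the genes, and whether the samples were paired was not tested. With the replicate block 0 factors passed, S100a8 and S100a9 passed (adjusted p = 0.00810 and 0.00784), Il21r and Klrb1b did not (0.0723 and 0.0531), and the count over all genes moved from 149 to 98.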

Other observations

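On the lists of lineage genes, Sox4, Id3 and Nfil3, transcription factor genes chosen after their values were seen, had no call, with differences of -0.74, -0.57 and -0.44 and limma adjusted p of 0.0897, 0.111 and 0.110. The opposing factors Bach2 and Foxo1, also chosen after their values were seen, were at -0.13 and -0.19 (adjusted p = 0.710 and 0.424).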
